A study of Rattus norvegicus with 12 samples.

Results

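The mitochondrial ribosomal protein genes were followed in INS-1E cells, a rat insulinoma line used as a model of the pancreatic β-cell. Members were chosen by name alone. They are every symbol of the count table made of Mrpl (large subunit) or Mrps (small subunit), a number and at most a closing a or b. Of 34034 symbols, 74 fit this pattern, and 73 passed the filter on low counts (a level over 1 CPM, counts scaled to the library total, in at least 2 of the 12 libraries), 45 of the large and 28 of the small subunit. The remaining one, Mrpl53, had 0 counts in all 12 libraries. After the same filter, 14324 genes were tested in all. The rule itself uses no measured value beyond that filter, and every kept member had at least 133 counts in every library.

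The mitochondrial ribosome is a separate ribosome inside the organelle that translates the few mRNAs transcribed from mitochondrial DNA, all of them for subunits of the respiratory chain and ATP synthase. Its RNAs come from mitochondrial DNA, while its proteins are encoded in the nucleus, made in the cytosol and imported. Some of these proteins descend from bacterial ribosomal proteins, and others were acquired by mitochondria and have no bacterial counterpart. In β-cells, mitochondrial ATP production couples glucose metabolism to insulin release.

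There were 4 groups of 3 libraries, each library from a biological replicate of wild-type INS-1E cells. Untreated cells received no cytokine. IL-1βlow cells were kept for 72 h with IL-1β at 10 pg/ml. CYT cells were challenged for 16 h with IL-1β at 100 pg/ml together with IFN-γ at 5 ng/ml. IL-1βlow + CYT cells received the low dose first and then, in renewed medium, the challenge. The comparisons address how the challenge changed transcript levels and how preconditioning with the low dose altered that change. All groups came from this 1 cell line.

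Libraries held 15812640 to 20246806 counts. All 10 β-cell markers examined were present in every group, with a summed level of 42152 to 51894 CPM in untreated and 14119 to 14620 CPM in CYT libraries, 39333 to 44413 CPM in IL-1βlow and 20343 to 25411 CPM in IL-1βlow + CYT libraries. Markers of other cell types were few in counts. The 6 macrophage and leukocyte markers summed to 1.05 to 1.68 CPM in untreated, 0.848 to 1.07 CPM in IL-1βlow, 2.25 to 3.56 CPM in CYT and 4.38 to 5.82 CPM in IL-1βlow + CYT libraries, with Ptprc and Itgam at 0 throughout. The 5 acinar and ductal markers summed in the same order to 0.224 to 0.443, 0.126 to 1.05, 6.32 to 9.07 and 0.961 to 1.98 CPM, with Cpa1 and Prss1 at 0 throughout. In the same order the 4 endothelial markers summed to 3.70 to 5.36, 3.84 to 6.72, 3.34 to 4.68 and 6.55 to 9.04 CPM. The 5 fibroblast and stellate markers summed to 0.392 to 0.640, 0.630 to 1.58, 0.718 to 1.07 and 1.14 to 2.37 CPM. Of the 5 markers of other islet endocrine cells, 4 never reached 10 counts in a library, and the sum, carried by Gcg, was 192 to 359 CPM in untreated, 153 to 265 CPM in IL-1βlow, 23.4 to 62.8 CPM in CYT and 72.8 to 149 CPM in IL-1βlow + CYT libraries. The part of these shifts in the results below was not tested. In bulk RNA, fewer cells of a type and less RNA per cell cannot be told apart.

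Levels are given as CPM scaled by trimmed mean of M-values (TMM) factors, as mean ± SD of 3 libraries, and changes as log2 fold changes with their standard error (SE). A gene was called when edgeR's quasi-likelihood test, fitted on all 12 libraries, gave a Benjamini-Hochberg adjusted p under 0.01 over the 14324 genes. A stricter count also required an absolute log2 fold change over 1, or over 0.6 for IL-1βlow against untreated. CPM is not corrected for transcript length, so levels of different members are not compared. Over all libraries Mrpl37 had the highest mean level, 145 CPM, and Mrps22 the lowest, 10.4 CPM.

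After the low dose alone no member was called. Across all genes 0.321% were called higher and 0.182% lower in IL-1βlow than in untreated cells, and 0.433% passed the stricter thresholds. The smallest adjusted p among the members was 0.25, and 6 members had an unadjusted p under 0.05. DESeq2, edgeR's exact test and limma-voom also called 0. The members' median log2 fold change was 0.09, against 0.0044 over all genes, and the single values lay between −0.35 for Mrpl1 and 0.34 for Mrps6. The estimate was positive for 56 and negative for 17 of the 73. With standard errors of 0.07 to 0.23, changes of the size of most estimates were not detectable with 3 libraries a group.

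The CYT challenge changed many members, more of them upward than downward. Of the 73 members 31 were higher (42.5%) and 8 lower (11.0%) in CYT than in untreated cells, and 34 were not called. Across all genes 25.2% were called higher and 24.5% lower. The members' median log2 fold change was 0.25, against −0.04 over all genes. The rises were mostly small. Only 4 members passed the stricter thresholds, Mrps18b, Mrpl38 and Mrpl15 upward and Mrps21 downward, where 21.6% of all genes passed them. With upper-quartile factors the split was 21 higher and 11 lower, against 21.6% and 28.8% of all genes. The members' median then stood 0.29 above the median of all genes, as it did under TMM, because that scaling moved the median of all genes to −0.14.

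**Figure D1:**
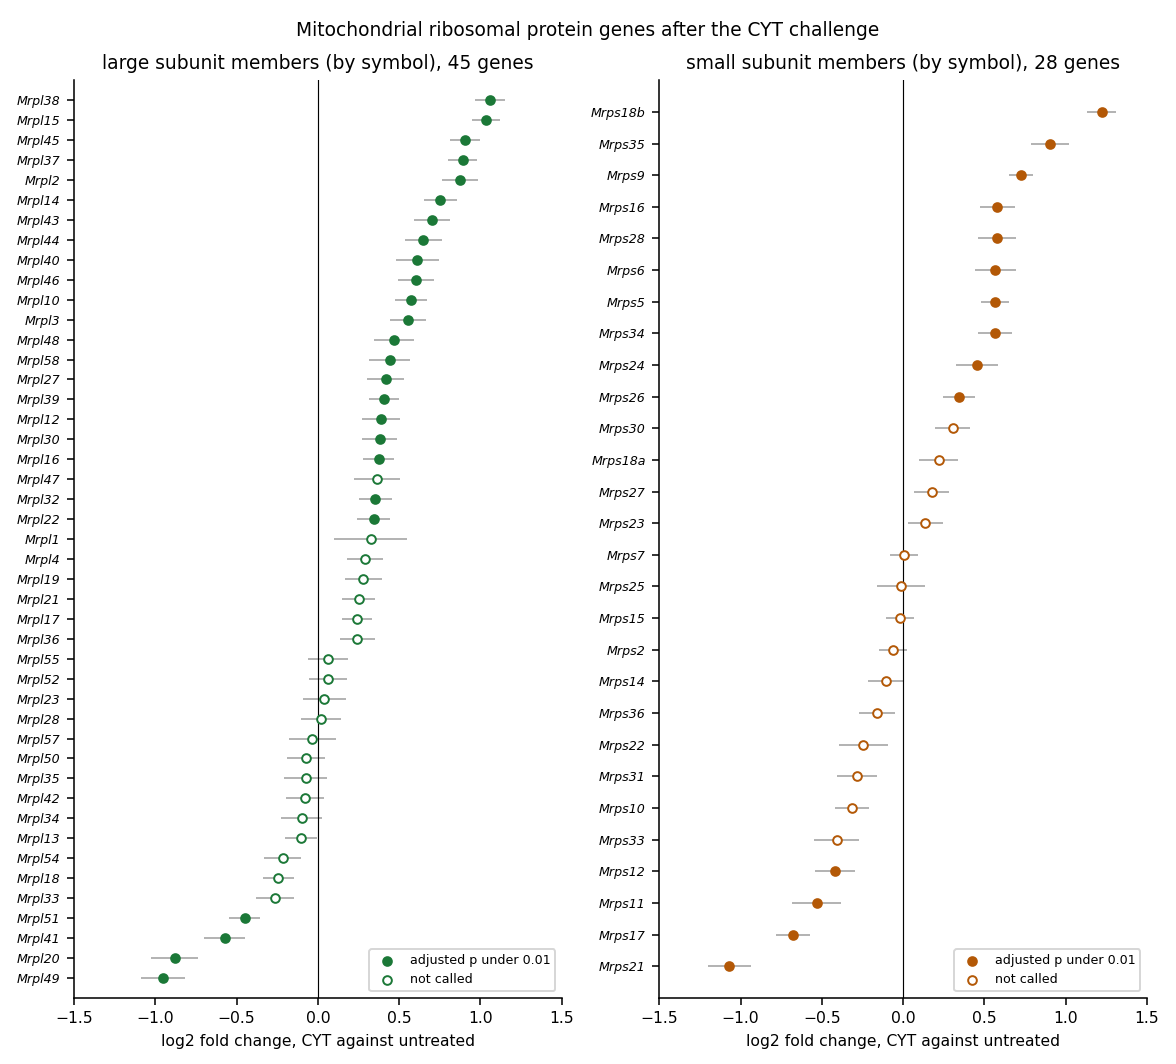
Each point is the log2 fold change of 1 member in CYT against untreated cells, with its standard error, for the 45 large (left) and 28 small (right) subunit members; filled points had an adjusted p under 0.01. Values run from −1.07 for Mrps21 to 1.22 for Mrps18b, and 21 large and 10 small subunit members were higher with TMM factors.

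Mrps18b rose the most. It encodes a small subunit protein related to bacterial S18 and, by the structure-based nomenclature, classed as specific to mitochondria. Its level was 46.6, 47.9 and 46.7 CPM in the untreated libraries, 51.9, 49.1 and 48.8 CPM in IL-1βlow, 104, 121 and 105 CPM in CYT, and 62.7, 62.8 and 54.1 CPM in IL-1βlow + CYT libraries. The CYT libraries stood above all 9 others, a separation that picking the largest rise makes likely. The change in CYT against untreated cells was 1.22 ± 0.09 (SE, adjusted p = 3e-08), a 2.33-fold rise in mean CPM.

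Mrpl38, a large subunit protein with no bacterial counterpart, showed 50.0, 50.8 and 49.9 CPM in untreated, 54.8, 56.1 and 57.4 CPM in IL-1βlow, 101, 114 and 98.8 CPM in CYT, and 59.8, 65.4 and 51.5 CPM in IL-1βlow + CYT libraries. Its change with CYT was 1.06 ± 0.09 (adjusted p = 2.4e-07). Mrpl15, a relative of bacterial L15, showed 47.6, 47.8 and 45.9 CPM in untreated, 50.5, 47.6 and 43.3 CPM in IL-1βlow, 98.1, 100.1 and 91.2 CPM in CYT, and 58.0, 57.6 and 52.2 CPM in IL-1βlow + CYT libraries. For both genes, picked for their large rises, the 3 CYT libraries lay above every other library. The change of Mrpl15 with CYT was 1.03 ± 0.08 (adjusted p = 1.1e-07).

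Mrps21, a relative of bacterial S21, fell the most. Its level was 36.5, 39.7 and 38.2 CPM in untreated, 48.2, 44.3 and 39.2 CPM in IL-1βlow, 22.0, 17.7 and 14.9 CPM in CYT, and 43.4, 39.6 and 37.3 CPM in IL-1βlow + CYT libraries. The CYT mean was 47.7% of the untreated mean, and the log2 fold change was −1.07 ± 0.13 (adjusted p = 7.8e-06). The table also lists Mrps21l, named as a relative of this gene, at −1.40 ± 0.24 (adjusted p = 0.00016), and counting may have split reads between the pair.

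Mrpl49, which has no bacterial counterpart, showed 90.6, 98.5 and 103 CPM in untreated, 96.8, 104 and 93.6 CPM in IL-1βlow, 61.4, 52.1 and 37.6 CPM in CYT, and 106, 104 and 94.7 CPM in IL-1βlow + CYT libraries. Mrpl20, a relative of bacterial L20, showed 25.8, 28.3 and 26.1 CPM in untreated, 29.6, 31.1 and 24.3 CPM in IL-1βlow, 17.9, 12.9 and 12.7 CPM in CYT, and 30.6, 31.9 and 25.9 CPM in IL-1βlow + CYT libraries. In both genes, picked for their large falls, the CYT libraries lay below every other library. The changes with CYT were −0.95 ± 0.13 (adjusted p = 2.9e-05) for Mrpl49 and −0.88 ± 0.15 (adjusted p = 0.00012) for Mrpl20. The gene span of Mrpl49 overlaps that of Syvn1, so its counts are less certain.

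The other 5 that fell with CYT, listed here after their values were seen, were Mrps17 (−0.68 ± 0.11), Mrpl41 (−0.57 ± 0.13), Mrps11 (−0.53 ± 0.15), Mrpl51 (−0.45 ± 0.10) and Mrps12 (−0.42 ± 0.12). Mrps12 is a protein whose bacterial counterpart lies at the decoding centre. Its adjusted p was 0.0079, and its call was lost when any 1 of the untreated or CYT libraries, or IL-1βlow replicate 1 or 2, was left out, with estimates between −0.45 and −0.30, and also with RLE factors (−0.39) or no filter on low counts (−0.35). The values of the other 4 under the alternatives were not examined gene by gene.

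**Figure D2:**
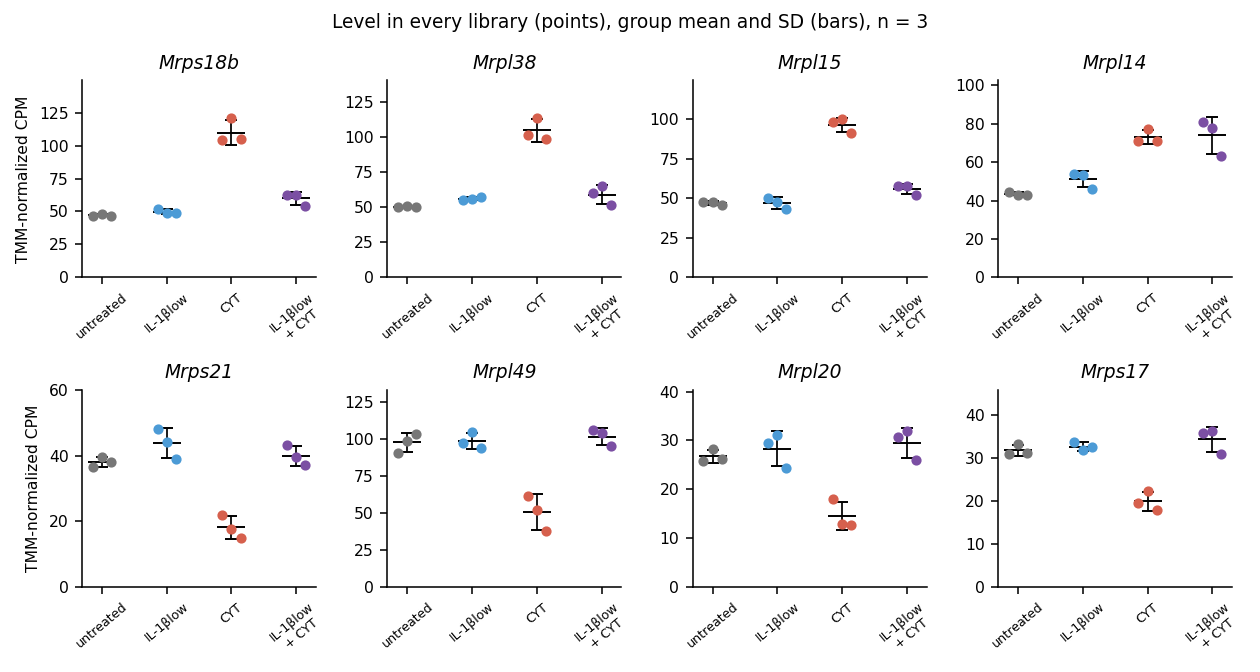
TMM-normalized CPM of 8 members in each of the 12 libraries (points), with the group mean and SD (bars). The CYT points stand above the untreated points for Mrps18b, Mrpl38, Mrpl15 and Mrpl14 and below them for Mrps21, Mrpl49, Mrpl20 and Mrps17, and for Mrpl14 the IL-1βlow + CYT points, 63.1 to 81.1 CPM, span the CYT points, 71.1 to 77.4 CPM.

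Promoter sequence was available for 58 of the 73 members, as RefSeq windows of the GRCr8 assembly from 250 bases before to 50 bases after each annotated start. The transcription factors NRF1 and GABP, an ETS factor, are known to bind near the start sites of many nuclear genes for mitochondrial proteins. The 150 bases before the start are shown 5′ to 3′ on the gene's strand for Mrps18b, Mrpl45, Mrps21 and Mrpl46. Mrps18b and Mrpl45, both called higher, have windows that hold the NRF1 motif (capitals). Mrpl37, with the next largest rise among members with a window (0.89 ± 0.09), lacks that motif and is not shown. Mrps21 fell the most, and Mrpl46 shares its upstream region with Mrps11.
Mrps18b, chr20:2842856-2843005, + strand: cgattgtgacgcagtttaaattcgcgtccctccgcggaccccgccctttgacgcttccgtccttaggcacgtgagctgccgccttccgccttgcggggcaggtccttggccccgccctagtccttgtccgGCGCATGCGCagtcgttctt
Mrpl45, chr10:82804889-82805038, + strand: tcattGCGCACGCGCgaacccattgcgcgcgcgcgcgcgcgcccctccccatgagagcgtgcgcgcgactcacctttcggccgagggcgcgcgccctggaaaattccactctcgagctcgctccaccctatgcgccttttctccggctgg
Mrps21, first of its annotated starts, chr2:186103352-186103501, − strand: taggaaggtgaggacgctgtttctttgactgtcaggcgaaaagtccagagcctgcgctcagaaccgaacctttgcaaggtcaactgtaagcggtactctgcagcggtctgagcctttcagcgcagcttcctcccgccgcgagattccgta
Mrpl46, chr1:142117031-142117180, − strand: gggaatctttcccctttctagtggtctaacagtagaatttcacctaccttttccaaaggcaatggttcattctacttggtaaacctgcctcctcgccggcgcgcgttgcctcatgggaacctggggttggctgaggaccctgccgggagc

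The letters of 5 motifs were searched on both strands of the 300-base windows. The NRF1 motif (GCGCA and GCGC with 1 base between) was present in the windows of 9 of the 58 members (15.5%), against 10.1% of the 10925 tested genes with a window and 4.82% of all 27457 genes with one. By response to CYT it was present in 7 of 23 members that rose, 0 of 7 that fell and 2 of 28 that were not called, against 9.58%, 8.79% and 11.0% of tested genes in those classes. The ETS motif CCGGAAG was present in 32.8% of members, against 17.6% of tested and 9.63% of all genes. By response it was in 7 of 23, 2 of 7 and 10 of 28, against 17.8%, 14.3% and 19.1% of tested genes. The YY1 motif AAGATGGC was present in 25.9% of members, against 5.66% and 3.62%. By response it was in 6 of 23, 1 of 7 and 8 of 28, against 5.25%, 4.55% and 6.41% of tested genes. The E-box CACGTG was present in 8.62% of members, against 9.72% and 7.08%. By response it was in 2 of 23, 0 of 7 and 3 of 28, against 13.4%, 7.03% and 9.10% of tested genes. The NF-kB motif of GGGA and TTTCC with 1 base between was present in 0 of the 58 members' windows, against 0.467% of tested and 0.390% of all genes. No motif of the 5 contains another, and each was counted apart. The window of Mrps18b also held the ETS motif, the YY1 motif and the E-box, and that of Mrpl37 held the YY1 motif. These matches are descriptions of sequence and were not tested against response.

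A start on the opposite strand within 1000 bases upstream was annotated for 17 of the 58 members (29.3%), against 17.1% of tested and 11.3% of all genes. Mrpl46 and Mrps11, chosen after their values were seen, form such a head-to-head pair, with starts 234 bases apart. Mrpl46, a large subunit protein, had 19.5, 18.9 and 19.1 CPM in untreated and 28.6, 28.7 and 30.3 CPM in CYT libraries, a change of 0.60 ± 0.11 (adjusted p = 0.00031). Mrps11, a relative of bacterial S11, had 36.8, 35.7 and 35.9 CPM in untreated and 29.2, 26.9 and 19.0 CPM in CYT libraries, a change of −0.53 ± 0.15 (adjusted p = 0.0064). The pair thus changed in opposite directions, with no overlap between CYT and untreated libraries in either gene.

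By subunit, 21 of 45 large subunit members rose with CYT (46.7%) and 4 fell (8.89%). Of 28 small subunit members 10 rose (35.7%) and 4 fell (14.3%). Across all genes 25.2% rose and 24.5% fell. The median log2 fold change was 0.32 for the large subunit, while for the small subunit it was 0.07 and became −0.02 with upper-quartile factors. Symbols and structure do not agree for 3 members. Mrps30 and Mrps18a sit in the large subunit of the assembled ribosome, and Mrps36 is now known as a component of the 2-oxoglutarate dehydrogenase complex. None of these 3 was called with CYT (0.30 ± 0.11, 0.22 ± 0.12 and −0.16 ± 0.11). Grouped by structure, the medians were 0.30 for 47 large and 0.00 for 25 small subunit members.

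Members were also classed by the structure-based nomenclature as of bacterial type or specific to mitochondria; in the latter class a protein can still be related to a bacterial one, as Mrps18b is. With CYT 25.2% of all genes rose and 24.5% fell. Among the 26 large subunit members of bacterial type 11 rose (42.3%) and 1 fell (3.85%). Among the 21 specific to mitochondria 10 rose (47.6%) and 3 fell (14.3%). In the small subunit, 6 of 15 members of bacterial type rose and 4 fell, while 4 of 10 specific to mitochondria rose and 6 were not called. Mrps35 (0.90 ± 0.12) and Mrps18b were the highest of the last group, and Mrps33, at −0.41 ± 0.14 (adjusted p = 0.018), was the lowest. Mrps35 and Mrps33 were chosen after their values were seen.

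Of 22 members with a well-described role, 11 rose (50.0%) and 1 fell (4.55%) with CYT, where 25.2% and 24.5% of all genes did. Mrpl45, which anchors the ribosome to the inner membrane at the tunnel exit, had 32.7, 34.9 and 34.1 CPM in untreated, 35.7, 38.6 and 35.2 CPM in IL-1βlow, 61.5, 68.8 and 60.4 CPM in CYT, and 43.5, 47.8 and 40.6 CPM in IL-1βlow + CYT libraries. Its change with CYT was 0.91 ± 0.09 (adjusted p = 1e-06). Mrpl23, at the rim of the same tunnel, was not called (0.04 ± 0.13). The stalk proteins that recruit translation factors, Mrpl10 (0.57 ± 0.10) and Mrpl12 (0.39 ± 0.12), were both called.

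Mrpl44, which carries a ribonuclease III-like fold, rose by 0.65 ± 0.11, and Mrpl58, a peptidyl-tRNA hydrolase that rescues stalled ribosomes, by 0.44 ± 0.13. Mrpl27, whose bacterial counterpart reaches towards the peptidyl transferase centre, rose by 0.42 ± 0.11, and Mrpl3 by 0.56 ± 0.11. In the small subunit Mrps5 (0.57 ± 0.09), Mrps16 (0.58 ± 0.11) and Mrps34 (0.56 ± 0.11) rose. Mrps2 (−0.06 ± 0.09), Mrps7 (0.00 ± 0.09), Mrps14 (−0.11 ± 0.11) and Mrps22 (−0.25 ± 0.15) were not called. The calls of Mrpl12, Mrpl27 and Mrpl58 were lost without CYT replicate 2 (0.25, 0.32 and 0.38) and without untreated replicate 1 (0.39, 0.38 and 0.45) or untreated replicate 3 (0.40, 0.39 and 0.47), those of Mrpl12 and Mrpl58 without untreated replicate 2 (0.42 and 0.43), and that of Mrpl12 without IL-1βlow replicate 1 (0.41) or IL-1βlow + CYT replicate 2 (0.39). With upper-quartile factors all 3 calls were lost (0.30, 0.32 and 0.35), and with limma-voom that of Mrpl12 (0.38).

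The remaining rises with CYT ran from 0.34 ± 0.10 for Mrpl22 (adjusted p = 0.0096) to 0.90 ± 0.12 for Mrps35. Mrpl22, Mrps9, Mrpl2 and Mrpl1 were chosen after their values were seen. Mrps9, a relative of bacterial S9, had the smallest standard error of all members and went from 53.9 ± 1.69 CPM in untreated to 89.1 ± 3.40 CPM in CYT cells (0.72 ± 0.07, adjusted p = 1.1e-06), with 56.6 ± 2.12 CPM in IL-1βlow + CYT cells. Mrpl2, a relative of bacterial L2, went from 23.5 ± 0.79 CPM in untreated to 43.1 ± 4.49 CPM in CYT cells (0.88 ± 0.11, adjusted p = 9.9e-06), with 29.0 ± 1.94 CPM in IL-1βlow and 31.6 ± 3.62 CPM in IL-1βlow + CYT cells. Mrpl1 had the widest standard error (0.32 ± 0.23), with 19.2 ± 3.11 CPM in untreated, 15.1 ± 5.97 CPM in IL-1βlow and 24.0 ± 4.67 CPM in CYT cells, and was not called in any comparison. The estimates of the 34 members that were not called with CYT lay between −0.41 and 0.36.

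Some members share their genomic span with another gene, where reads may be assigned to either. In the GRCr8 annotation this held for 19 of 72 members found there, 11 of those that rose, 2 that fell and 6 that were not called. Leaving these out of the 73, 20 members rose and 6 fell with CYT, where 25.2% and 24.5% of all genes did. How many of all tested genes overlap another was not counted. The overlapped members include Mrpl37 (with Ssbp3), Mrpl14 (with Tmem63b) and Mrpl43 (with Twnk). The strand setting used in counting is not given in the sources used here.

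Between challenged cells with and without preconditioning, members differed in both directions. In IL-1βlow + CYT against CYT cells 9 members were higher (12.3%) and 17 lower (23.3%), and 47 were not called. Across all genes 17.1% were called higher and 19.2% lower. The members' median was −0.09, against 0.02 over all genes, and with upper-quartile factors the split was 12 higher and 13 lower, against 21.3% and 16.4% of all genes. Without CYT replicate 2 only 17 members were called, 7 higher and 10 lower. This comparison shares the CYT libraries with the one before, so the direction of a member in one bears on its direction in the other.

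**Figure D3:**
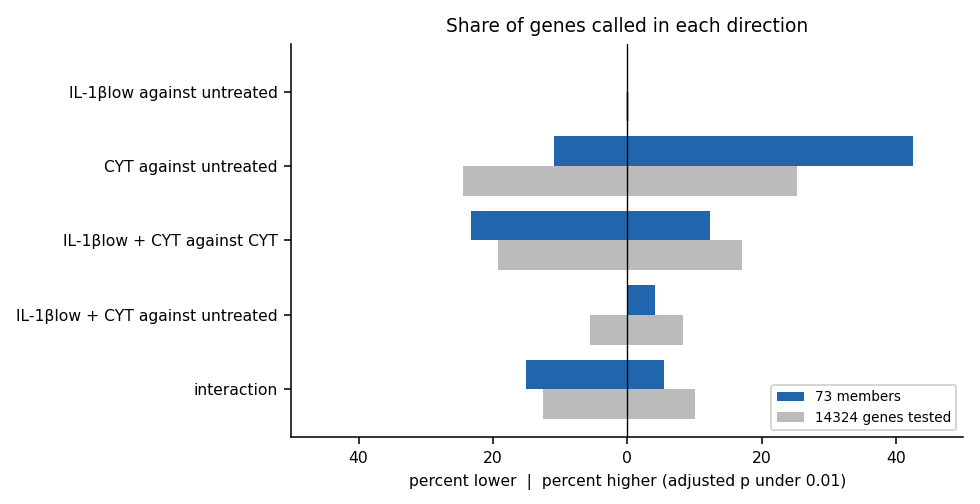
Percent of the 73 members (blue) and of the 14324 genes tested (grey) called higher (right) or lower (left) at an adjusted p under 0.01 in each comparison, with TMM factors. In CYT against untreated cells 42.5% of members and 25.2% of all genes were higher, and in IL-1βlow + CYT against untreated cells 4.11% and 8.24%; with upper-quartile factors 21 and 2 members were higher in these comparisons.

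The 3 members past the stricter thresholds, which 12.5% of all genes passed, were all higher in the preconditioned cells. Mrps21 differed by 1.14 ± 0.13 (adjusted p = 8.1e-06), Mrpl20 by 1.02 ± 0.15 (adjusted p = 5.3e-05) and Mrpl49 by 1.01 ± 0.13 (adjusted p = 2.9e-05). The largest falls were those of Mrps18b (−0.87 ± 0.09, adjusted p = 2.1e-06), Mrpl38 (−0.83 ± 0.09, adjusted p = 5.7e-06) and Mrpl15 (−0.79 ± 0.08, adjusted p = 3.6e-06). For these 6 genes the IL-1βlow + CYT libraries lay wholly outside the range of the CYT libraries, as listed above. They were picked for the largest called changes, so this separation largely follows from the choice. Its share over all genes was not counted. Among members with a described role, Mrps5 (−0.45 ± 0.09), Mrpl44 (−0.43 ± 0.11), Mrps27 (−0.46 ± 0.11), a pentatricopeptide repeat protein, and Mrps30 (−0.40 ± 0.11) were also lower, and Mrps12 was higher (0.64 ± 0.12). Without CYT replicate 2 the calls of Mrpl44 (−0.35), Mrps27 (−0.40) and Mrps30 (−0.37) were lost. Without IL-1βlow + CYT replicate 2 or 3 those of Mrpl44 (−0.39 and −0.41) and Mrps30 (−0.34 and −0.40) were lost, and that of Mrps30 also without CYT replicate 3 (−0.36) or untreated replicate 3 (−0.40). In a fit of only the groups compared the calls of Mrpl44 (−0.45), Mrps27 (−0.47) and Mrps30 (−0.42) were lost. Upper-quartile factors removed those of Mrpl44 (−0.36) and Mrps30 (−0.32), and scaling by total counts alone that of Mrps30 (−0.39).

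Set side by side, the 31 members that rose with CYT had median log2 fold changes against untreated cells of 0.09 in IL-1βlow, 0.57 in CYT and 0.19 in IL-1βlow + CYT cells. The 8 that fell had medians of 0.08, −0.63 and 0.07. The 34 that were not called had medians of 0.06, −0.02 and 0.05. All of these share the untreated libraries, and the classes were set by the CYT values, so the CYT medians follow from the choice.

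**Figure D4:**
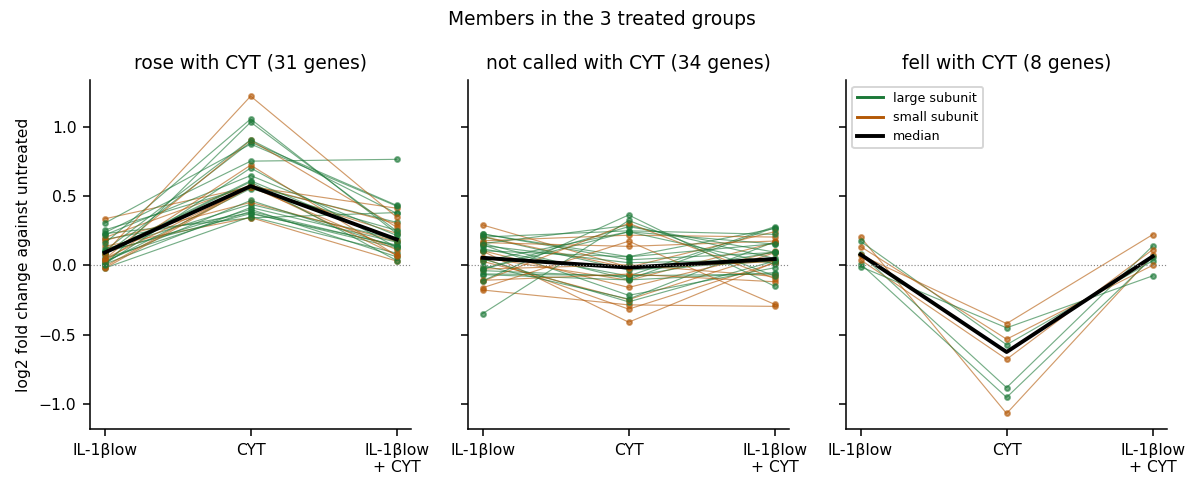
Log2 fold change against untreated cells of each member (thin lines, green for large and orange for small subunit) and the median (black) in IL-1βlow, CYT and IL-1βlow + CYT cells, in 3 panels by the call in CYT against untreated cells with TMM factors. The medians of the 31 members that rose are 0.09, 0.57 and 0.19, and those of the 8 that fell are 0.08, −0.63 and 0.07; the panels were formed on the CYT values.

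In preconditioned and challenged cells few members stayed apart from untreated levels. Only Mrpl14, Mrpl37 and Mrpl45 were called in IL-1βlow + CYT against untreated cells, all higher (4.11% of members), and 0 were lower. Across all genes 8.24% were called higher and 5.53% lower, and 5.99% passed the stricter thresholds, which 0 members passed. The members' median was 0.13, against −0.005 over all genes. The higher count was 6 with DESeq2, under a replicate block, with edgeR's exact test and with no filter on low counts, while lower members were 0 under DESeq2, the exact test and limma-voom too, and 20 of the 73 had an unadjusted p under 0.05 in either direction.

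Mrpl14, a relative of bacterial L14 at the interface between the subunits, was the member furthest from untreated levels. Its level was 44.3, 43.0 and 43.0 CPM in untreated, 54.0, 53.2 and 46.2 CPM in IL-1βlow, 71.1, 77.4 and 71.2 CPM in CYT, and 81.1, 77.5 and 63.1 CPM in IL-1βlow + CYT libraries. All 6 challenged libraries stood above all 6 unchallenged ones, and the ranges of CYT and IL-1βlow + CYT overlapped. The change against untreated cells was 0.75 ± 0.10 (adjusted p = 1.7e-05) with CYT alone and 0.77 ± 0.10 (adjusted p = 5.4e-05) after preconditioning, and the difference between both was 0.01 ± 0.10. The change after preconditioning stayed called in each of the 22 alternative fits.

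Mrpl37 had 109, 114 and 108 CPM in untreated, 114, 126 and 108 CPM in IL-1βlow, 200.2, 215 and 198 CPM in CYT, and 155, 159.5 and 132 CPM in IL-1βlow + CYT libraries. Its level after preconditioning and challenge thus lay between the untreated and CYT ranges, at 0.43 ± 0.09 above untreated (adjusted p = 0.0023). Mrpl45 stood 0.38 ± 0.09 above untreated (adjusted p = 0.008). The call of Mrpl37 was lost without untreated replicate 1 or 3 (0.40 and 0.42) or IL-1βlow + CYT replicate 1 or 2 (0.39 and 0.38), and that of Mrpl45 without any of these (0.33, 0.38, 0.37 and 0.31), without untreated replicate 2 (0.38) or without IL-1βlow replicate 1 or 2 (0.36 in each). The call of Mrpl45 was also lost with upper-quartile factors (0.36), with at least 10 counts required in every library (0.35) and in a fit of only the groups compared (0.38). Without members that overlap another gene, Mrpl45 was left as the 1 member called. The count of 3 was thus set by few libraries. It was 1 without untreated replicate 1 or 3 or IL-1βlow + CYT replicate 1 or 2, 2 without untreated replicate 2, 5 without CYT replicate 2 and 7 without IL-1βlow + CYT replicate 3.

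The interaction tests whether the effect of CYT differed between preconditioned and other cells. It was past the threshold for 15 members, 4 higher (5.48%) and 11 lower (15.1%), where 10.1% of all genes were called higher and 12.5% lower. Higher means a CYT effect shifted upward by preconditioning. No member passed the stricter thresholds, which 10.7% of all genes passed. The largest negative values were those of Mrpl38 (−0.99 ± 0.13, adjusted p = 7.4e-05), Mrps18b (−0.96 ± 0.12, adjusted p = 6.1e-05) and Mrpl15 (−0.79 ± 0.12, adjusted p = 0.00019). The positive ones were those of Mrpl49 (1.00 ± 0.19, adjusted p = 0.001), Mrpl20 (0.94 ± 0.20, adjusted p = 0.0026), Mrps21 (0.94 ± 0.18, adjusted p = 0.0013) and Mrps17 (0.75 ± 0.15, adjusted p = 0.0013). The call of Mrpl20 was lost without untreated replicate 2 (0.86), and that of Mrpl37 without untreated replicate 3 (−0.52) or CYT replicate 2 (−0.49). That of Mrpl44 (−0.65) was lost with upper-quartile factors (−0.58) and without untreated replicate 3 (−0.60), IL-1βlow replicate 1 (−0.63), CYT replicate 2 (−0.57) or IL-1βlow + CYT replicate 2 or 3 (−0.61 and −0.63). The count was 10 without untreated replicate 3 or CYT replicate 2, with 6 lower in each case.

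Summed over the 73 members, the level was 2780 ± 30.1 CPM in untreated, 2948 ± 149 CPM in IL-1βlow, 3350 ± 216 CPM in CYT and 3062 ± 240 CPM in IL-1βlow + CYT libraries (SD, n = 3). The CYT libraries (3136 to 3568 CPM) lay above the untreated ones (2746 to 2805 CPM), while those of IL-1βlow + CYT (2788 to 3229 CPM) overlapped both the untreated and the CYT range. These sums were 0.278% and 0.331% of all counts on average in untreated and CYT libraries. The ratio of the large to the small subunit sum was 1.53 ± 0.02 in untreated, 1.56 ± 0.05 in IL-1βlow, 1.65 ± 0.01 in CYT and 1.64 ± 0.02 in IL-1βlow + CYT libraries. The ratio in both challenged groups (1.62 to 1.67) lay above that of every unchallenged library (1.52 to 1.62), by a margin of 1.618 at IL-1βlow replicate 2 against 1.621. With subunits grouped by structure the ranges overlapped, since IL-1βlow replicate 2 (1.929) then lay above CYT replicate 1 (1.923) and IL-1βlow + CYT replicate 3 (1.925). The sums are given as a description. An exact permutation test of 3 against 3 libraries cannot reach a p below 0.1.

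**Figure D5:**
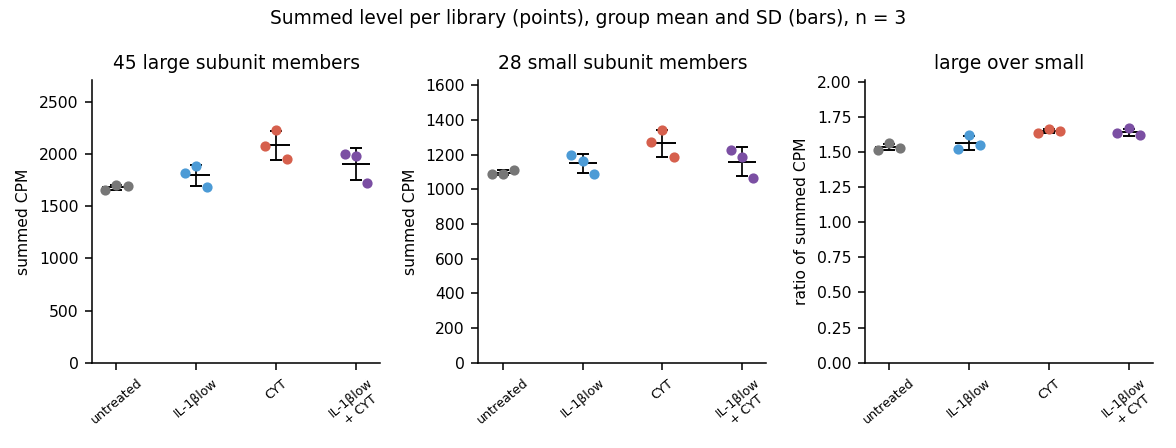
Summed TMM-normalized CPM of the 45 large (left) and 28 small (middle) subunit members and their ratio (right) in each library (points), with the group mean and SD (bars). The large subunit sum averages 1683 CPM in untreated and 2084 CPM in CYT libraries, the small subunit sum 1097 and 1266 CPM, and the ratio 1.53 and 1.65.

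Not every protein of the mitochondrial ribosome carries a symbol of this form. The table spells mrpl9, mrpl11 and mrpl24 in lower case, outside the rule. With CYT mrpl9 rose from 45.5 ± 2.62 to 130 ± 13.5 CPM (1.51 ± 0.10, adjusted p = 1.2e-08), mrpl24 rose by 0.69 ± 0.12 (adjusted p = 0.00016), and mrpl11 fell (−0.73 ± 0.14, adjusted p = 0.00037). The estimate for mrpl9 was above that of each of the 73 members. Of 6 ribosomal proteins under other symbols, Aurkaip1 (0.57 ± 0.10) and Dap3 (0.34 ± 0.09) rose and Ptcd3 fell (−0.76 ± 0.18), while the other 3 were not called. The rises were 33.3% and the fall 16.7% of this list, against 25.2% and 24.5% of all genes.

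Factors that build or serve the mitochondrial ribosome were counted in the same way. Of 28 assembly factors 11 rose (39.3%) and 3 fell (10.7%) with CYT, with a median of 0.25, where 25.2% and 24.5% of all genes did. Gtpbp6, a GTPase of large subunit maturation, rose from 65.7 ± 2.85 to 176 ± 23.4 CPM (1.42 ± 0.11, adjusted p = 7.7e-08). Ybey, an endoribonuclease of the small subunit, fell from 12.4 ± 0.71 to 3.93 ± 1.10 CPM (−1.65 ± 0.17, adjusted p = 1.2e-06), and Rpusd4, a pseudouridine synthase of the large subunit RNA, rose (1.02 ± 0.12, adjusted p = 4.2e-06). In IL-1βlow + CYT against CYT cells 2 of the 28 were higher (7.14%) and 9 lower (32.1%), against 17.1% and 19.2% of all genes.

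Of 17 translation factors 4 rose (23.5%) and 3 fell (17.6%), shares not above those of all genes (25.2% and 24.5%). Oxa1l, the inner membrane insertase that receives the nascent chain, rose by 0.97 ± 0.09, and the recycling factor Mrrf by 0.95 ± 0.09. Gfm2, which acts with Mrrf in recycling, fell from 45.5 ± 1.01 to 21.5 ± 3.66 CPM (−1.08 ± 0.11, adjusted p = 1.4e-06) and stood at 42.5 ± 2.70 CPM in IL-1βlow + CYT cells. Of 12 genes of mitochondrial transcription and DNA replication, 2 rose and 2 fell (16.7% each), below the shares of all genes. Among them Twnk, the replicative helicase, rose by 0.65 ± 0.09, Polrmt, the mitochondrial RNA polymerase, by 0.53 ± 0.11, and Mterf2 fell (−1.29 ± 0.26). The span of Twnk overlaps that of Mrpl43, so reads may be assigned to either.

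Of 10 transcription factors known for nuclear genes of mitochondrial proteins, 5 rose (50.0%) and 2 fell (20%) with CYT, against 25.2% and 24.5% of all genes. In IL-1βlow + CYT against CYT cells 5 were lower (50.0%, against 19.2% of all genes) and the other 5 were not called. Esrra rose from 60.0 ± 2.64 to 127 ± 11.1 CPM (1.08 ± 0.09, adjusted p = 1.8e-07) and Nrf1 from 36.0 ± 2.35 to 77.1 ± 9.74 CPM (1.10 ± 0.12, adjusted p = 2.4e-06). The coactivator Ppargc1b rose from 3.21 ± 0.57 to 12.3 ± 1.17 CPM (1.93 ± 0.20, adjusted p = 1.7e-06). The 2 that fell, named after their values were seen, were the GABP subunits Gabpa (−0.64 ± 0.19, adjusted p = 0.0081) and Gabpb2 (−0.75 ± 0.17, adjusted p = 0.0019). After preconditioning and challenge Nrf1 stood at 37.7 ± 5.03 CPM and Esrra at 65.6 ± 4.55 CPM.

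The mRNAs that this ribosome translates were lower after the challenge. Of the 13 proteins encoded in mitochondrial DNA, 11 fell with CYT (84.6%, against 24.5% of all genes) and 2 were not called. Their median log2 fold change was −1.18. ND4, a complex I subunit, went from 2179 ± 443 to 538 ± 167 CPM (−2.02 ± 0.33, adjusted p = 0.00012), ND2 from 1850.4 ± 193 to 759 ± 194 CPM and ND1 from 2394 ± 291 to 1100 ± 338 CPM. In IL-1βlow + CYT against CYT cells 7 of the 13 were higher (53.8%, against 17.1% of all genes) and 6 were not called. Against untreated cells the median of the 13 was −0.23.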

How the data were processed

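Poly(A) RNA of INS-1E cells was sequenced from TruSeq libraries. The authors deposited a table of raw counts per gene symbol, made with featureCounts after quality control with FastQC and alignment to mRatBN7.2, and the labels name R 4.3.3. These counts were used as deposited, and 0 columns lacked a sample. Genes over 1 CPM in at least 2 of the 12 libraries were kept. TMM factors, a quasi-likelihood fit over all 4 groups (8 residual degrees of freedom, biological coefficient of variation 0.123) and Benjamini-Hochberg adjustment over 14324 genes were run in edgeR 4.0.16 (R 4.3.3). Alternatives used DESeq2 1.42.0, limma 3.58.1 and edgeR's exact test. The edgeR fit and its calls for CYT against untreated cells were tested on simulated data, and the other steps were not.

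The members and gene lists were chosen with earlier results of these data known. Members named in the text are the 3 largest called rises and falls of each comparison, those past the stricter thresholds, those with a described role and the highest and lowest level, with at most 3 genes per other list by adjusted p in CYT against untreated. Others are marked as chosen after their values were seen.

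The sample titles number the replicates and call them biological. Deviations of same-numbered CYT and IL-1βlow + CYT libraries correlated in every pair (lowest r 0.116, 3 pairs). So did those of IL-1βlow with CYT (lowest r 0.131) and with IL-1βlow + CYT libraries (lowest r 0.179). Pairs with untreated libraries did not all correlate (lowest r −0.188 over all 18 pairs). The numbers may thus pair the treated groups, but differently numbered libraries were not correlated for reference. The main fit held no term for the replicate number, and a fit with it as a block is given below. Every pair of replicates differed by more than counting noise (chi-square over its degrees of freedom 6.67 to 25.3). Promoters came from RefSeq windows of GRCr8, matched by symbol. Gene overlaps came from the RefSeq gene table of the same assembly, by name, which is not the build of the counts.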

Additional observations from a re-analysis of the deposited data

Results flagged for a closer look

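For 15 members the effect of CYT differed between preconditioned and other cells by the interaction test of edgeR. Of the 73 members 5.48% were called higher and 15.1% lower, against 10.1% and 12.5% of all genes. The 11 with a negative difference (log2) were Mrpl38 (−0.99), Mrps18b (−0.96), Mrpl15 (−0.79), Mrpl2 (−0.75), Mrps9 (−0.68), Mrps35 (−0.67), Mrpl46 (−0.66), Mrpl44 (−0.65), Mrpl45 (−0.64), Mrpl43 (−0.58) and Mrpl37 (−0.53). The 4 with a positive difference were Mrpl49 (1.00), Mrpl20 (0.94), Mrps21 (0.94) and Mrps17 (0.75). Adjusted p-values ran from 6.1e-05 for Mrps18b to 0.0095 for Mrpl43. The call of Mrpl44 was lost in 6 of 20 alternative fits and that of Mrpl37 in 2 of 20. Groups of 3 libraries were not tested for outlying samples.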

How the results depend on the processing

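Of 44 called changes of named members, 32 stayed called in the same direction under every alternative run; over 950 refits 885 kept the call, 65 lost it and 0 changed sign. With upper-quartile factors the members' median was 0.16 in CYT against untreated and −0.01 in IL-1βlow + CYT against CYT cells. The small subunit median changed sign in both (−0.02 and 0.04). These factors also moved the median of all genes, from −0.04 to −0.14 and from 0.02 to 0.10. In the second comparison the small subunit median also changed sign without members overlapping another gene (0.01). The cause was not tested. In CYT against untreated cells the count of 39 was 4 at the stricter thresholds and 27 to 40 with 1 library left out (median 0.20 to 0.30). In IL-1βlow + CYT against CYT cells the count of 26 was 17 in a fit of only the groups compared, 40 at an adjusted p under 0.05, 3 at the stricter thresholds and 17 to 27 with 1 library left out (median −0.17 to −0.08). In IL-1βlow + CYT against untreated cells the count of 3 was 6 with no filter on low counts, with DESeq2 or with the exact test, 9 at an adjusted p under 0.05, 0 at the stricter thresholds, 1 without overlapped members and 1 to 7 with 1 library left out. The interaction count of 15 was 27 at an adjusted p under 0.05 and 0 at the stricter thresholds. With the replicate number as a block (replicate block), 6 members were higher in IL-1βlow + CYT against untreated cells and 17 lower in the interaction; the other counts moved by less than 1.5 times. Without Rn45s in the totals the summed levels were 3054, 3276, 3630 and 3404 CPM in untreated, IL-1βlow, CYT and IL-1βlow + CYT libraries, and with upper-quartile factors 2831 CPM in untreated ones. What depth limits was not tested; every member had at least 133 counts in every library.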
